A study of Mus musculus with 21 samples.

Results

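Transcripts of 10 genes of the nitric oxide and cyclic GMP pathway were followed in mouse heart RNA. They are the nitric oxide synthases Nos1, Nos2 and Nos3, the soluble guanylyl cyclase subunits Gucy1a1 and Gucy1b1, the cyclic GMP-dependent protein kinase Prkg1, and the cyclic nucleotide phosphodiesterases Pde2a, Pde3a, Pde5a and Pde9a. They were chosen by gene symbol. All 10 were found among the 19096 genes of the deposited gene matrix, and all 10 were among the 15216 genes with enough reads to test. The hearts came from 21 male C57BL/6NJ mice, 8 to 10 weeks old at the start, in a 2-hit model of a failing heart whose ejection fraction is kept, which joins obesity to high blood pressure.

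The groups were chow novirus (4 hearts, chow diet), chow Renin (6 hearts, chow diet and an adeno-associated virus carrying renin), HFD novirus (6 hearts, a high-fat diet with 60% of its energy from fat) and HFD Renin (5 hearts, high-fat diet and the renin virus). The sample labels say "novirus", while the series description gives these controls a null vector. The diet lasted 10 weeks, and hearts were collected 6 weeks after injection behind the eye and freeze-clamped. The promoter of the vector and the tissue it reaches are not given in the sources used here. Each heart gave 1 library, so the spread between libraries is that between animals plus handling.

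Nitric oxide is made from arginine by the synthases and diffuses to soluble guanylyl cyclase, a heterodimer of an alpha and a beta subunit that makes cyclic GMP. Cyclic GMP activates protein kinase G, which relaxes smooth muscle and in heart muscle cells acts on calcium handling and the sarcomere. Phosphodiesterases end the signal by splitting the nucleotide, and the pathway is a drug target in heart failure.

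Prkg1 was the member with the clearest difference: its transcripts were higher in HFD Renin hearts than in each of the other groups, by 1.84-fold against chow novirus. Nos1 was 3.18-fold higher in chow Renin than in chow novirus, from few reads and together with transcripts of brain cell types. The other 8 members (Nos2, Nos3, both cyclase subunits and the 4 phosphodiesterases) were called in none of the 6 comparisons. A call means an adjusted p under 0.05 in edgeR's quasi-likelihood test, with Benjamini-Hochberg adjustment over the 15216 genes. In bulk heart libraries such as these, fewer cells of a type and less RNA per cell cannot be told apart.

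Library depth, rounded to 1000 reads, ran from 18743000 to 29265000 reads assigned to transcripts, and the 4 chow novirus libraries (18743000 to 21414000 reads) were all shallower than the other 17 (22806000 reads or more). All 9 cardiomyocyte markers fixed for the tissue check had reads in every library. They summed to 53403 to 62738 CPM (counts scaled to library size by the TMM method) in chow novirus, 50863 to 52311 CPM in chow Renin, 51758 to 59064 CPM in HFD novirus and 44951 to 50504 CPM in HFD Renin, which lay wholly below the other 3 groups. By atrial markers, 5 libraries stood apart: chow novirus replicate 3, chow Renin replicates 1 and 3, HFD novirus replicate 3 and HFD Renin replicate 3 held 343 to 756 CPM of them, and the other 16 held 21.95 to 51.7 CPM. In the chow Renin libraries, 8 of 8 central neuron, 6 of 6 oligodendrocyte and 4 of 6 astrocyte markers were called higher than in chow novirus, as were 10 of 10 genes of a stimulated-cell list (Saa3, Il6, Ptgs2 and others). The marker lists were chosen with earlier results of these data known, so counts over them are descriptions and not independent support. Of a clock list labelled night (Dbp, Per1 and others), 4 of 9 in HFD Renin and 2 of 9 in chow Renin were called lower than in chow novirus. Of a list labelled day (Arntl, Npas2 and others), 1 of 4 and 2 of 4 were called higher. These labels only name the 2 lists and do not state when each transcript peaks. The night transcripts summed to 545 to 688 CPM in HFD Renin and 613 to 699 CPM in chow Renin, both wholly below the 736 to 851 CPM of chow novirus, and to 703 to 783 CPM in HFD novirus. Results that move with these features are given below with their values.

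Levels can be compared between genes only per length, in TPM (reads per transcript length, scaled to the same total in each library). Pde2a had the highest median over the 21 libraries at 16.6 TPM (range 10.97 to 24.2), followed by Nos3 at 7.99 TPM (6.78 to 10.6) and Gucy1b1 at 5.28 TPM (3.81 to 6.18). Pde3a had a median of 3.77 TPM (3.05 to 5.78), Gucy1a1 3.31 TPM (2.37 to 5.68) and Nos2 2.82 TPM (1.85 to 3.46). Pde9a at 1.25 TPM (0.744 to 2.36) and Prkg1 at 1.23 TPM (0.705 to 1.95) followed, then Pde5a at 0.366 TPM (0.237 to 0.503) and Nos1 at 0.0555 TPM (0.0230 to 0.250). In this order, the ranges of Pde2a and Nos3 did not overlap, nor did those of Nos3 and Gucy1b1. Every later pair of neighbours overlapped except Prkg1 and Pde5a, and Pde9a and Prkg1 did so almost fully. The place of Pde2a rests partly on short transcripts: those under 1000 bases held from 30.1 to 69.9% of its TPM, and its median was 9.60 TPM without them, which ran from 3.31 to 14.5 TPM and so overlapped with Nos3.

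**Figure D1:**
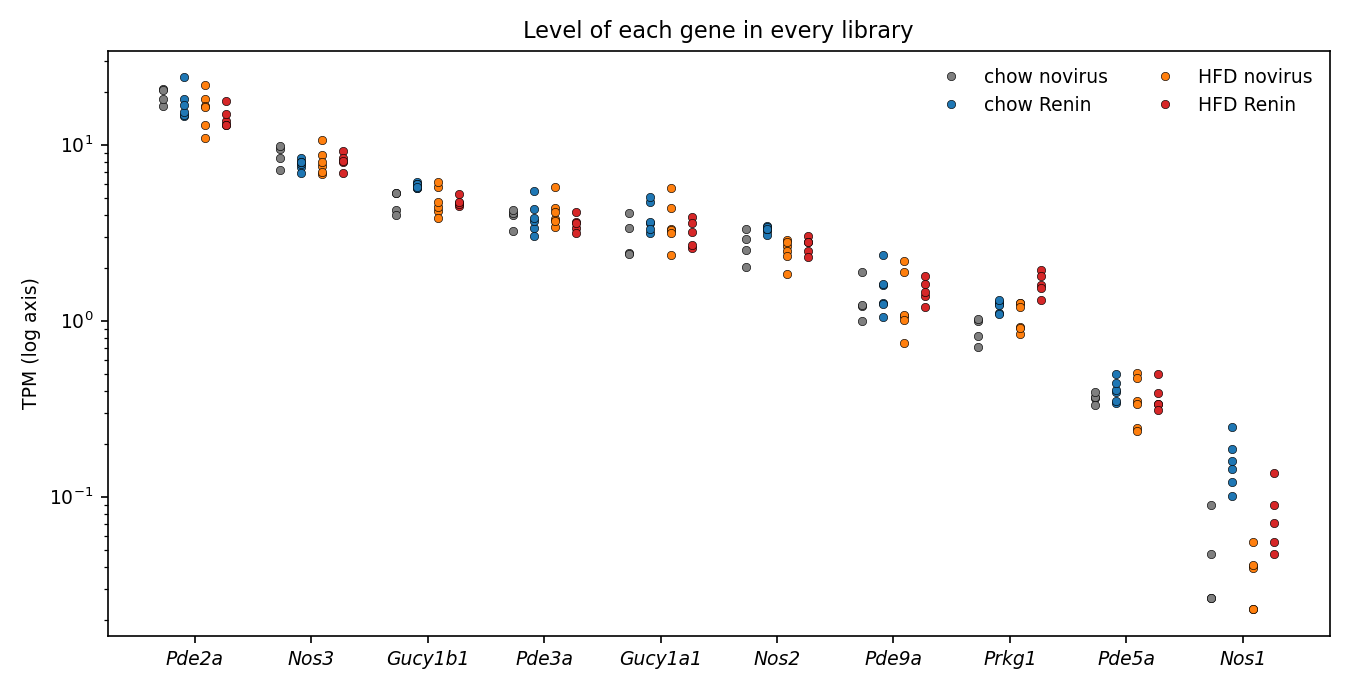
Level of each member in every library in TPM on a log axis, members ordered by their median over 21 libraries, points coloured by group. Pde2a lies highest with a median of 16.6 TPM and Nos1 lowest at 0.0555 TPM, and the HFD Renin points of Prkg1 lie above most others.

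Nos1 (chr5:117781032-117958840, plus strand, GRCm38 as for all positions here) is the neuronal nitric oxide synthase, which heart muscle cells also carry near the calcium release channel. The chow novirus libraries held 0.349, 0.333, 1.04 and 0.436 CPM of Nos1, and the chow Renin libraries ran from 1.08 through a median of 1.60 to 3.06 CPM. HFD novirus ran from 0.305 through 0.520 to 0.854 CPM, and the HFD Renin libraries held 1.05, 0.734, 0.897, 0.628 and 1.71 CPM. All 6 chow Renin libraries lay above all chow novirus and all HFD novirus libraries, and chow novirus replicate 3 stood above the rest of its own group. Between chow Renin and chow novirus, 10.4% of tested genes were apart in this way. These values rest on 6 to 20 reads a library in chow novirus and 29 to 84 in chow Renin.

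In chow Renin against chow novirus, the log2 fold change of Nos1 was 1.67 (SE 0.39, adjusted p = 0.00373, edgeR). It was 1 of 2 members called there, both higher, where 13.5% of all tested genes were called and 10.1% were called higher. The other comparisons of Nos1 were not called: the log2 fold change was 0.89 (SE 0.40, adjusted p = 0.179) for HFD Renin against chow novirus, 0.96 (SE 0.35, adjusted p = 0.0791) for HFD Renin against HFD novirus, -0.78 (SE 0.33, adjusted p = 0.0910) for HFD Renin against chow Renin, and -0.06 (SE 0.41, adjusted p = 0.975) for HFD novirus against chow novirus. Without chow novirus replicate 3, Nos1 was called in HFD Renin against chow novirus (1.42, SE 0.43, adjusted p = 0.0443 by edgeR), where leaving out each library in turn gave adjusted p from 0.0443 to 0.428.

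Central neuron markers moved with Nos1. Their summed level was 288 to 439 CPM in chow Renin against 132 to 150 CPM in chow novirus, 133 to 178 CPM in HFD novirus and 107 to 173 CPM in HFD Renin, and none of the 8 markers was at 0 in any library. With a score of the 20 central nervous markers as a covariate, the Nos1 difference was 0.31 (SE 0.96, adjusted p = 0.961, edgeR), in a fit that called 38 genes in all against 2048 without the score. The call was also lost with the clock score described under Prkg1 as the covariate (1.20, SE 0.50, adjusted p = 0.152, edgeR). The central nervous score held 90.3% of its variance between groups, so the group and the score cannot be told apart, and the part of these cells in the result was not tested. Across the 21 libraries Nos1 and the neuron markers had a Pearson r of 0.71, and of 0.24 after the group means were taken off, on log2 values from libraries of the same 4 groups. The 3 genes most like Nos1 over the 21 libraries were Slc7a5 (r = 0.88), Crmp1 (0.87) and Sez6l2 (0.86). In HFD Renin the neuron markers were not called against chow novirus (0 of 8), and Nos1 there stood at 0.628 to 1.71 CPM with an uncalled difference.

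**Figure D2:**
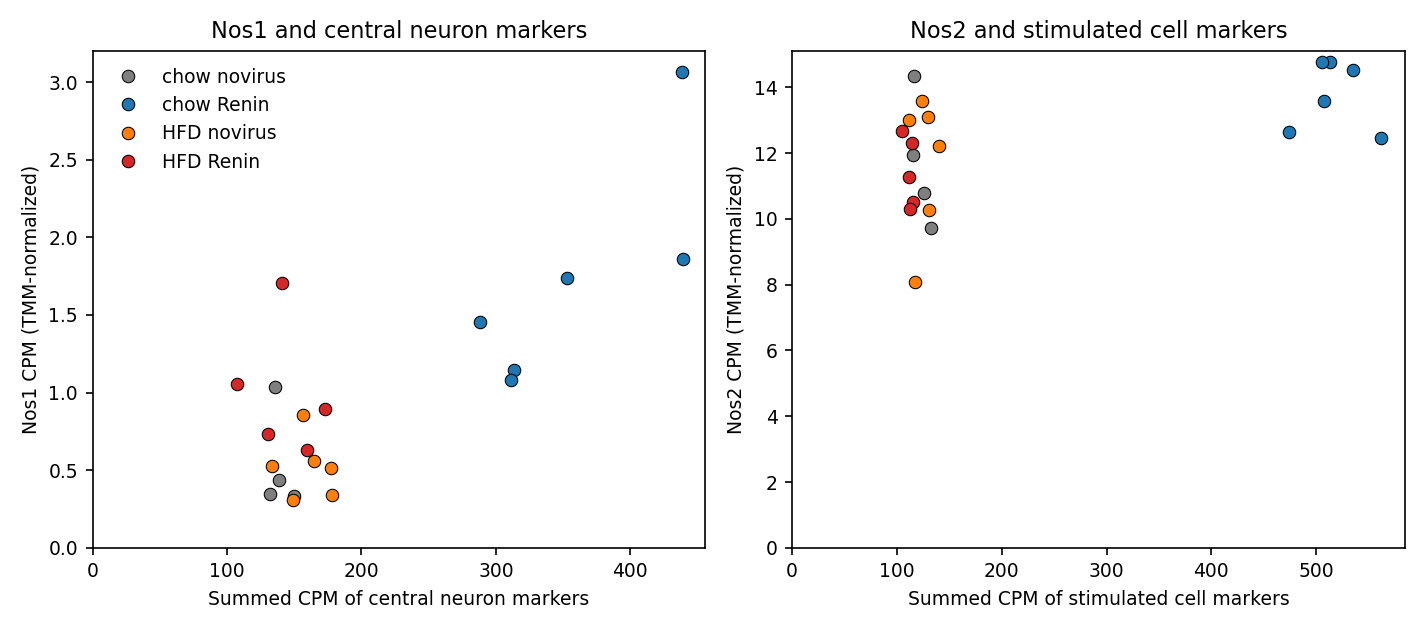
CPM of Nos1 against the summed CPM of 8 central neuron markers (left) and CPM of Nos2 against the summed CPM of 10 stimulated-cell markers (right), 1 point per library, coloured by group. The 6 chow Renin libraries lie to the right of all others in both panels, and only the left panel has them above all chow novirus and HFD novirus points.

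Nos2 (chr11:78920787-78960254, plus strand), the inducible synthase that immune signals switch on, had overlapping levels in the 4 groups. Its level was 9.71, 10.8, 11.9 and 14.4 CPM in chow novirus, 12.5 to 14.8 CPM (median 14.04) in chow Renin, 8.07 to 13.6 CPM (median 12.6) in HFD novirus and 12.3, 12.7, 10.5, 10.3 and 11.3 CPM in HFD Renin. Chow Renin had the highest median, and no pair of groups was apart. The largest difference was -0.27 on the log2 scale (SE 0.11, adjusted p = 0.0908, edgeR) for HFD Renin against chow Renin, and Nos2 was not called against chow novirus in chow Renin (0.24, SE 0.12, adjusted p = 0.244). The stimulated-cell list, in contrast, summed to 474 to 562 CPM in chow Renin and to 104 to 140 CPM in the other 3 groups. That list was chosen with earlier results of these data known.

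Most Nos2 reads were on 2 protein-coding transcripts, Nos2-203 with 60.5% and Nos2-201 with 39.4%. Nos2-203 made up 53.3 ± 6.82% of the gene's TPM in chow Renin (SD, n = 6) and 69.6 ± 6.43% in HFD Renin (SD, n = 5), a difference with an exact two-sided permutation p of 0.00866 that was 0.39 after adjustment over 45 transcript share tests. None of those 45 tests, over 9 members and 5 pairwise comparisons, passed the adjustment, and 2 had an unadjusted p under 0.05.

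Nos3 (chr5:24364810-24384474, plus strand) is the endothelial synthase, the main source of nitric oxide in vessels. It stood at 36.6, 41.1, 44.9 and 49.9 CPM in chow novirus and ran from 32.6 through 36.9 to 37.2 CPM in chow Renin. HFD novirus ran from 35.0 through 43.5 to 53.0 CPM, and HFD Renin held 41.6, 35.7, 41.4, 41.0 and 39.2 CPM. None of the 11 libraries highest in Nos3 was a chow Renin library, yet the ranges of chow Renin and chow novirus met between 36.6 and 37.2 CPM.

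The Nos3 difference in chow Renin was -0.28 (SE 0.10, adjusted p = 0.0543, edgeR) and was not called; DESeq2 gave -0.27 (adjusted p = 0.0461), and the alternatives ran from adjusted p 0.00884 to 0.973. Endothelial markers summed to 694 to 849 CPM in chow Renin and 800 to 900 CPM in chow novirus, with 0 of 8 called and a median log2 fold change of -0.21. Over the 21 libraries Nos3 and the endothelial score had r = 0.74 (0.64 on deviations from group means). In HFD Renin Nos3 differed by -0.12 from chow novirus (SE 0.10, adjusted p = 0.51, edgeR). Nos3 shares exon bases with genes on the opposite strand, Atg9b among them, as do Nos1, Pde3a, Pde5a and Pde9a, and whether reads were assigned by strand is not given in the sources used here.

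Gucy1b1 (chr3:82032006-82074689, minus strand) and Gucy1a1 (chr3:82092427-82145789, minus strand) encode the beta and alpha subunits of the cyclase, and the beta subunit holds the haem that senses nitric oxide. The genes are neighbours, with 17737 bases between them (GENCODE M21, GRCm38). Gucy1b1 was at 16.4, 14.3, 19.2 and 19.9 CPM in chow novirus, 19.8 to 21.6 CPM (median 20.1) in chow Renin, 16.2 to 22.3 CPM (median 19.5) in HFD novirus, and 17.8, 17.4, 17.2, 17.5 and 17.0 CPM in HFD Renin. All 5 HFD Renin libraries lay below all 6 chow Renin libraries, as was the case for 9.78% of tested genes. The fitted difference was -0.23 (SE 0.08, adjusted p = 0.0522, edgeR), above the threshold. The interaction (the Renin log2 fold change of Gucy1b1 under HFD, less the one under chow) was -0.36 (SE 0.12, adjusted p = 0.0592). DESeq2 called both, with adjusted p of 0.0243 and 0.0274, and over all alternatives the adjusted p ran from 0.00333 to 0.999 and from 0.0263 to 0.999.

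Gucy1a1 varied more within groups. Chow novirus held 13.4, 13.1, 21.4 and 18.7 CPM, chow Renin 16.2 to 23.7 CPM (median 18.8), HFD novirus 15.6 to 31.1 CPM (median 19.3), and HFD Renin 13.2, 18.3, 21.1, 20.02 and 13.6 CPM. Every pair of groups overlapped, and the log2 fold changes between groups ran from -0.29 (HFD Renin against HFD novirus, SE 0.18, adjusted p = 0.301, edgeR) to 0.35 (HFD novirus against chow novirus, SE 0.19, adjusted p = 0.528).

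The spread of Gucy1a1 went with atrial markers. In each group the libraries high in atrial markers, 5 in all, had more Gucy1a1 than every other library of their group, with 21.4 CPM in chow novirus replicate 3 against 13.1 to 18.7 CPM, and 31.1 CPM in HFD novirus replicate 3 against 15.6 to 23.9 CPM. Pde5a was above its group in 4 of these 5 libraries and below it in 1, and Pde9a was above its group in 3 of 5. Nos2 was below its group in 3 of 5 and Pde3a in 2 of 5. The other members stood above their group in at most 1 of the 5 libraries. Gucy1a1 had r = 0.71 with the atrial score and 0.78 with the smooth muscle score over the 21 libraries, and 0.80 and 0.83 on deviations from group means. The atrial score held 3.14% of its variance between groups, and without the 5 libraries no Gucy1a1 comparison was called.

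**Figure D3:**
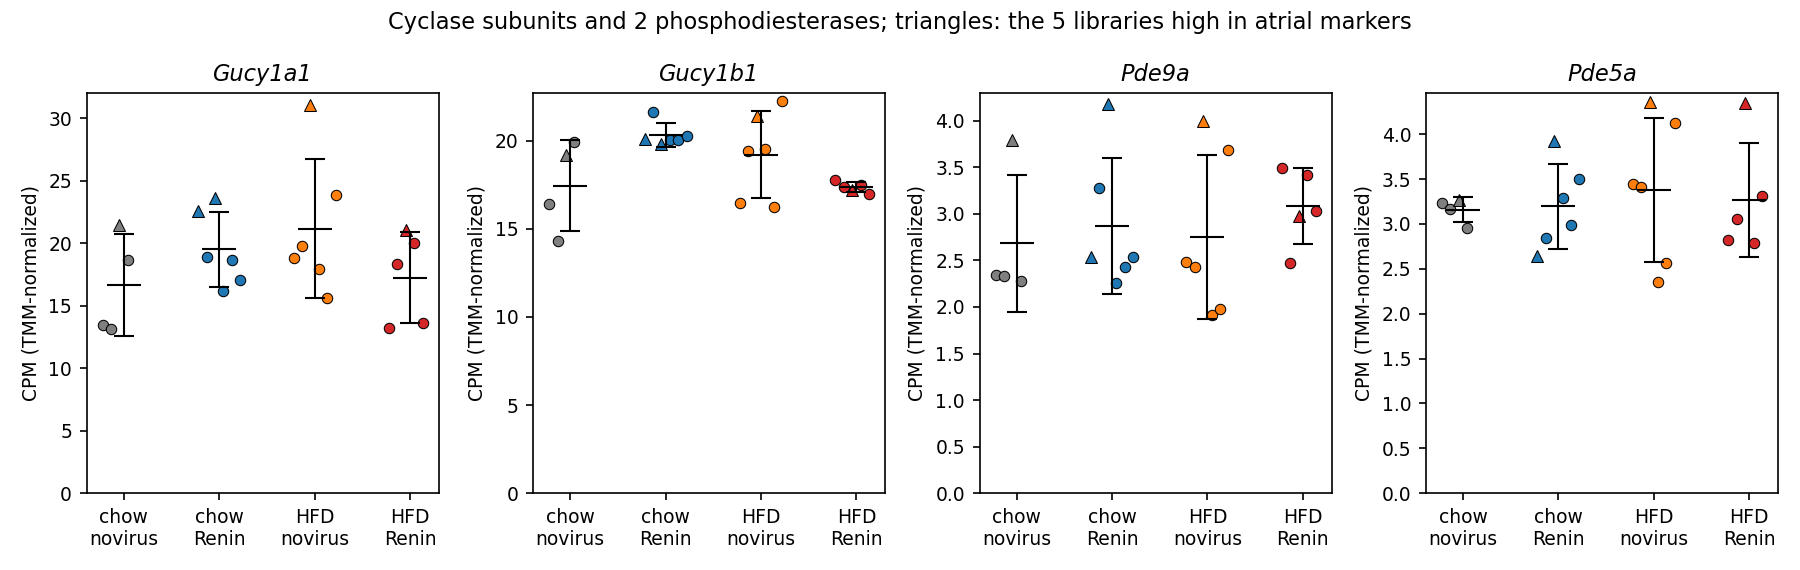
CPM of the cyclase subunits Gucy1a1 and Gucy1b1 and of Pde9a and Pde5a by group, 1 marker per library, with the group mean and SD, triangles marking the 5 libraries high in atrial markers. For Gucy1a1 the triangles are the top markers of each group, while for Gucy1b1 none is above all circles of its group and 1, in chow Renin, is below them.

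The log2 ratio of Gucy1a1 to Gucy1b1 in TPM was -0.64 ± 0.19 in chow novirus (SD, n = 4), -0.61 ± 0.24 in chow Renin (SD, n = 6), -0.43 ± 0.23 in HFD novirus (SD, n = 6) and -0.59 ± 0.32 in HFD Renin (SD, n = 5). The alpha subunit was the lower in every library, with the ratio between -1.02 and -0.03, and the groups overlapped in every pairing. The subunits had r = 0.65 over the libraries and 0.61 on deviations from group means. The 3 genes most like Gucy1a1 were Mrvi1 (r = 0.90), which encodes a substrate of cyclic GMP-dependent kinase, Lmod1 (0.86), which is a marker in the smooth muscle list, and Gas1 (0.86). Those most like Gucy1b1 were Map3k12 (0.85), Armcx1 (0.84) and Ampd2 (0.84).

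Prkg1 encodes cyclic GMP-dependent protein kinase I, the main cyclic GMP effector in smooth muscle and heart muscle. The gene spans chr19:30564489-31765033 on the minus strand (GRCm38). Prkg1-201, a protein-coding transcript that starts at the far end of this span, carried 99.1% of its reads, and Prkg1-202, which starts 100663 bases further into the gene, had 23.5 reads assigned over the 21 libraries. Both starts have an entry in RefSeq (GRCm38.p6), and the 250 bases before each are shown because Prkg1 is the member whose level differed most clearly and nearly all of its reads were assigned to the transcript of the first start; capitals mark matches to the motifs named after them.
Prkg1 first start, chr19:31765034-31765283, minus strand: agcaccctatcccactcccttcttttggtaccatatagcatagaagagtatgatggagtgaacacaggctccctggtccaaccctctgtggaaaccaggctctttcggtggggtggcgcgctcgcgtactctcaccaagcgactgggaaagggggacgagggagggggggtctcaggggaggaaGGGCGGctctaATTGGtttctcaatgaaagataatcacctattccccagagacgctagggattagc
Prkg1 second start, chr19:31664371-31664620, minus strand: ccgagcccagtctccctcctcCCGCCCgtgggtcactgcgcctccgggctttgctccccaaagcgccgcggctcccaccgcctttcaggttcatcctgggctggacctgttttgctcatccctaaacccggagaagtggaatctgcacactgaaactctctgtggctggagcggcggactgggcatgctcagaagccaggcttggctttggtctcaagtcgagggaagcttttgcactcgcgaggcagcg

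The search covered 5 motifs on both strands: the TATA box (TATAAA), the CCAAT box, the GC box (GGGCGG), the E-box of the clock proteins (CACGTG) and the CArG box of serum response factor by name. The first window held GGGCGG from 66 to 61 bases before the start and CCAAT, on the other strand, from 55 to 51 bases before it. The second window held GGGCGG on the other strand, near its far end. GGGCGG is found in 32.7% of 32817 windows of the same length, CCAAT in 33.8%, TATAAA in 12.4%, CACGTG in 6.02% and the CArG box in 1.47%, and the last 3 were in neither Prkg1 window. The windows had 55.2 and 62.8% GC, against a median of 52.4% over all windows.

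Prkg1 stood at 8.42, 7.05, 8.51 and 6.16 CPM in chow novirus. It ran from 8.66 through 9.46 to 10.4 CPM in chow Renin and from 8.07 through 9.25 to 10.7 CPM in HFD novirus. The HFD Renin libraries held 15.3, 11.6, 13.6, 13.8 and 14.9 CPM. All 5 HFD Renin libraries lay above all 16 others, the lowest of them at 11.6 CPM against 10.7 CPM for the next library below. In TPM this separation was not complete, since HFD Renin replicate 2 (1.305 TPM) lay below chow Renin replicate 6 (1.316 TPM). In CPM chow Renin and HFD novirus overlapped almost fully, and 4.98% of all tested genes had HFD Renin wholly above chow novirus, 1.95% above HFD novirus and 5.55% above chow Renin.

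In HFD Renin against chow novirus, the log2 fold change of Prkg1 was 0.88 (SE 0.11, adjusted p = 0.000124, edgeR), the single member called where 8.29% of tested genes were (4.05% higher). Against HFD novirus it was higher by 0.56 (SE 0.10, adjusted p = 0.00138), again the single member called, beside 11.1% of tested genes (6.07% higher). Against chow Renin it was higher by 0.55 (SE 0.10, adjusted p = 0.000151), the single member called where 22.6% of tested genes were (9.8% higher). Leaving out each library in turn kept all 3 calls, with log2 fold changes from 0.79 to 0.94, from 0.52 to 0.62 and from 0.49 to 0.60. The counts over all genes moved more: against chow novirus, 1262 calls became 565, 623 or 691 without chow novirus replicate 4, 2 or 1 and 664, 686 or 793 without HFD Renin replicate 1, 5 or 2. Against HFD novirus, 1696 became 696, 784 or 934 without HFD Renin replicate 1, 5 or 2. In the authors' deposited table, whose reference group is not stated, the log2 fold change of Prkg1 was 0.81 with an adjusted p of 2.01e-09, and no other member had an adjusted p under 0.05.

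Each single exposure gave a smaller Prkg1 difference. In chow Renin against chow novirus it was 0.33 (SE 0.11, adjusted p = 0.0418, edgeR), called, with all 6 libraries above all 4. The call was lost without any 1 of chow novirus replicates 2 and 4 or chow Renin replicates 2, 3, 5 and 6 (adjusted p 0.0510 to 0.188). It was also lost with no filter (0.34, adjusted p = 0.0515, edgeR) and without the 5 libraries high in atrial markers (0.41, adjusted p = 0.0569), where the estimate was no smaller. With the clock covariate it was 0.23 (adjusted p = 0.387), with the central nervous covariate 0.47 (adjusted p = 0.657), and with limma at pseudocounts 1 and 0.1 it was 0.19 (adjusted p = 0.123) and 0.32 (adjusted p = 0.101). In HFD novirus against chow novirus the difference was 0.32 (SE 0.11, adjusted p = 0.275, edgeR), in a comparison where edgeR called 0.0657% of tested genes (10 genes) and DESeq2 124 genes. Neither tool called any of the 10 members there, and 1 (Prkg1) had an unadjusted p under 0.05 in edgeR. Leaving out single libraries moved the 10 genes to between 0 and 57, the highest without HFD novirus replicate 4. The interaction was 0.23 for Prkg1 (SE 0.14, adjusted p = 0.363, edgeR), so a departure from the sum of both log2 changes was not called. An interaction was called for 10.4% of tested genes (3.14% positive and 7.3% negative) and by edgeR for 0 of 10 members, with 1 at an unadjusted p under 0.05 (Gucy1b1), which DESeq2 called.

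Clock transcripts moved with Prkg1. A clock score (mean log2 CPM of 9 night transcripts minus that of 4 day transcripts) held 65.4% of its variance between groups. With it as a covariate, the Prkg1 difference was 0.73 (SE 0.17, adjusted p = 0.397, edgeR) in HFD Renin against chow novirus, 0.46 (SE 0.13, adjusted p = 0.468) against HFD novirus and 0.50 (SE 0.10, adjusted p = 0.00096) against chow Renin. The first 2 calls were lost and the third was kept. In those first 2 fits 0 of all tested genes were called, against 1262 and 1696 without the score, so the loss is not particular to Prkg1. Over the 21 libraries Prkg1 and the night transcripts had r = -0.77, and -0.11 on deviations from group means. With the central nervous score as covariate the difference from chow Renin was 0.42 (SE 0.25, adjusted p = 0.969), where 41 genes were called in all against 3440 without the score, and that from chow novirus 0.90 (SE 0.12, adjusted p = 0.000102). Without the 5 libraries high in atrial markers the differences were 0.93, 0.60 and 0.52 against chow novirus, HFD novirus and chow Renin, and all 3 were called.

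Cardiomyocyte markers moved opposite to Prkg1: all 5 HFD Renin libraries had a lower sum (44951 to 50504 CPM) than the 16 others (50863 CPM or more). Of these 9 markers, 0 were called higher and 4 lower against chow novirus, 1 higher and 4 lower against HFD novirus, and 2 higher and 3 lower against chow Renin, with median log2 fold changes of -0.02, -0.12 and 0.08. The median thus has the opposite sign to the sum against chow Renin. Prkg1 and the cardiomyocyte score (mean log2 CPM) had r = -0.55, and -0.32 on deviations from group means. The part of these cells in the Prkg1 result was not tested.

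Smooth muscle markers, which cells rich in this kinase express, were not called higher with Prkg1. They summed to 275 to 402 CPM in HFD Renin and 317 to 368 CPM in chow novirus, with 0 of 7 called higher and 1 called lower. Fibroblast markers summed to 681 to 1012 CPM in HFD Renin and 482 to 865 CPM in chow novirus, with 0 of 6 called and a median log2 fold change of 0.48. Against chow Renin, at 447 to 685 CPM, 1 of 6 was called higher with a median of 0.55. The fibroblast score had r = 0.57 with Prkg1 (0.38 on deviations). Their part in the result was not tested. Among the genes most like Prkg1 over the 21 libraries were Sprr1a (r = 0.87), a small proline-rich protein, and Akap2 (0.86), an anchoring protein of cyclic AMP-dependent kinase.

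**Figure D4:**
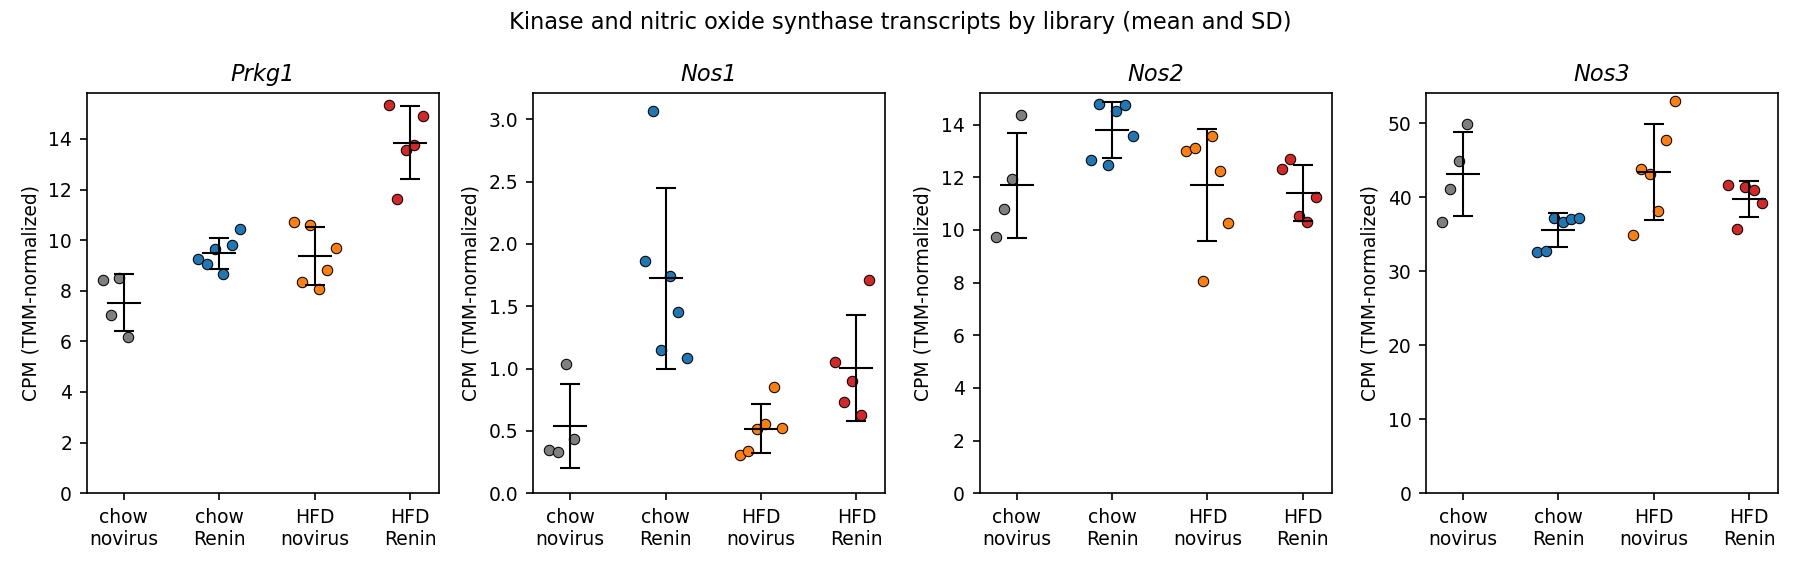
CPM of Prkg1, Nos1, Nos2 and Nos3 by group, 1 point per library, with the group mean and SD. The 5 HFD Renin points of Prkg1 (11.6 to 15.3 CPM) lie above all others, and the 6 chow Renin points of Nos1 (1.08 to 3.06 CPM) lie above all chow novirus and HFD novirus points.

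The 4 phosphodiesterases differ in what they split and what controls them: Pde2a is stimulated by cyclic GMP, Pde3a splits cyclic AMP and is inhibited by cyclic GMP, Pde5a is the target of sildenafil, and Pde9a is specific for cyclic GMP. None was called in any of the 6 comparisons. Of their summed TPM over the 21 libraries, Pde2a made up 74.1 ± 3.07% (SD, n = 21), Pde3a 17.8 ± 2.64%, Pde9a 6.43 ± 1.78% and Pde5a 1.71 ± 0.373%. With transcripts of at least 1000 bases alone, the shares were 60.0, 27.6, 9.74 and 2.64% in the same order.

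Pde2a (chr7:101421691-101512827, plus strand) was at 43.2, 53.5, 58.2 and 53.6 CPM in chow novirus, 32.1 to 70.3 CPM (median 46.1) in chow Renin, 23.2 to 71.2 CPM (median 51.1) in HFD novirus and 35.0, 50.8, 36.1, 46.0 and 33.4 CPM in HFD Renin. The within-group spread was wide and every pair of groups overlapped. The difference of HFD Renin from chow novirus was -0.37 (SE 0.26, adjusted p = 0.415, edgeR), and the authors' deposited table, whose reference group is not stated, lists -0.24 with an adjusted p of 0.0608. Its transcript with most reads, Pde2a-209, is annotated as a target of nonsense-mediated decay and carried 55.9% of the reads, while the protein-coding Pde2a-204 carried 16.4%. The share of Pde2a-209 in the gene's TPM ran from 6.36 to 36.4% within HFD novirus alone.

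Pde3a (chr6:141249269-141507448, plus strand) stood at 63.7, 63.3, 48.6 and 68.1 CPM in chow novirus, 41.6 to 78.8 CPM (median 55.4) in chow Renin, 58.4 to 93.6 CPM (median 67.98) in HFD novirus and 60.1, 54.6, 56.5, 58.1 and 48.4 CPM in HFD Renin. Of the 6 libraries highest in Pde3a, 4 were HFD novirus and none was HFD Renin. The difference of HFD Renin from HFD novirus was -0.34 (SE 0.13, adjusted p = 0.0974, edgeR), and the groups overlapped. The gene most like Pde3a was Mef2a, a muscle transcription factor (r = 0.89, and 0.88 on deviations from group means), followed by Dip2c (0.83) and Tmem135 (0.83).

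Pde5a (chr3:122728947-122859374, plus strand) was low, at 3.24, 3.17, 3.27 and 2.96 CPM in chow novirus, 2.64 to 3.92 CPM in chow Renin, 2.36 to 4.35 CPM in HFD novirus and 2.82, 3.05, 4.34, 2.79 and 3.31 CPM in HFD Renin. Its fitted differences between pairs of groups lay between -0.05 and 0.10, with SE of 0.16 to 0.18. Pde9a (chr17:31386210-31476310, plus strand) was at 2.34, 2.33, 3.79 and 2.28 CPM in chow novirus, 2.25 to 4.18 CPM in chow Renin, 1.92 to 4.00 CPM in HFD novirus and 3.50, 2.47, 2.98, 3.42 and 3.03 CPM in HFD Renin. Its differences lay between 0.04 and 0.20, with SE of 0.20 to 0.23, and each of these differences was smaller than its own SE. Pde5a and Pde9a had r = 0.55 with each other, and Pde9a had r = 0.75 with the fibroblast score and 0.71 with the smooth muscle score.

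**Figure D5:**
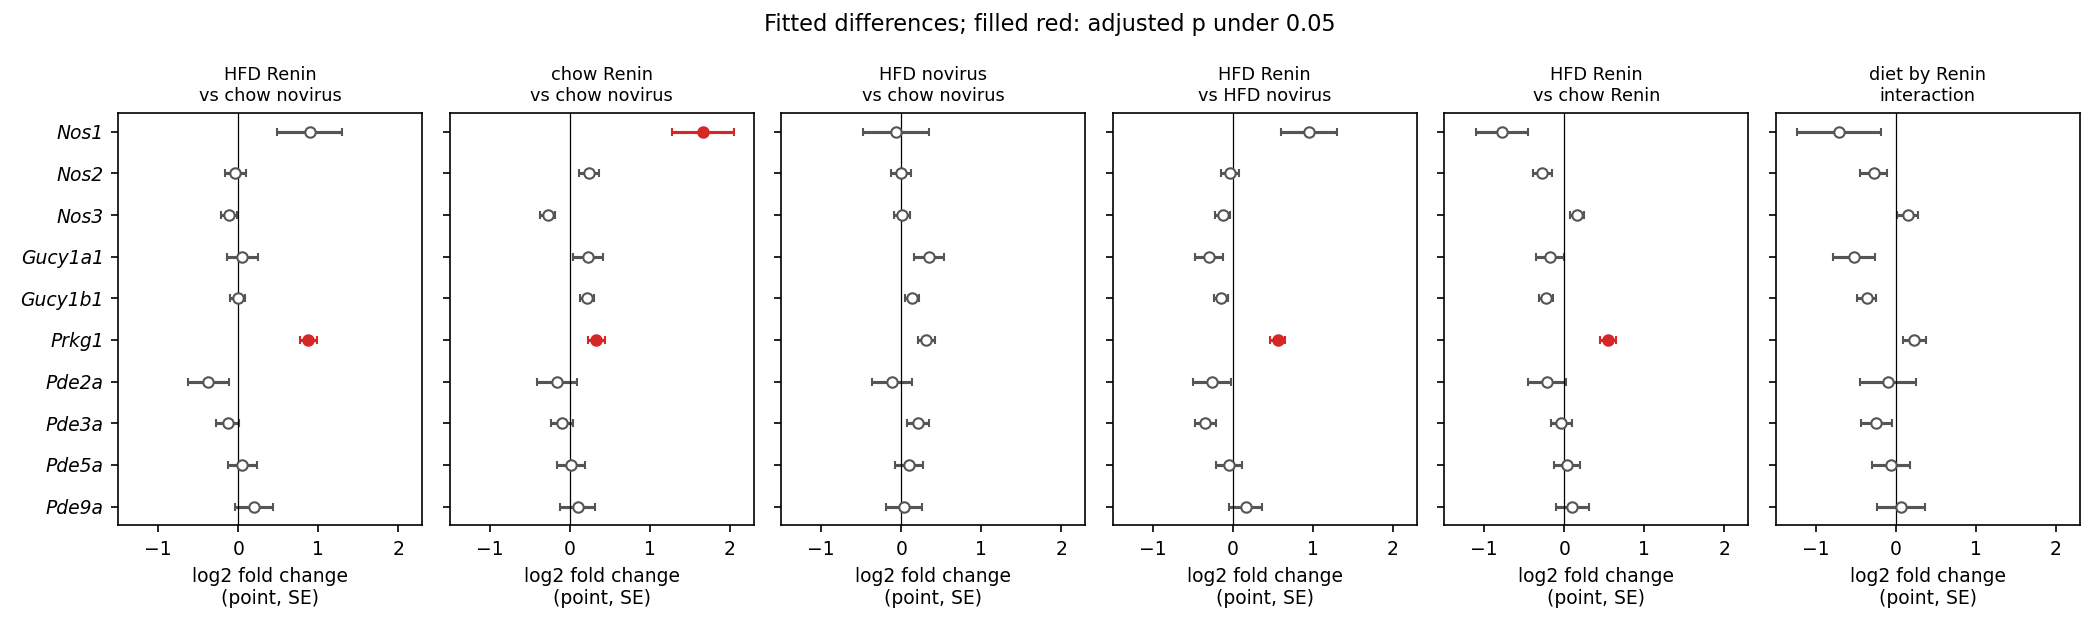
Fitted log2 fold change of each member (point) with its SE (bar) in the 5 pairwise comparisons and the diet by Renin interaction, filled red where the adjusted p was under 0.05. Prkg1 is filled in 4 panels and Nos1 in 1, and the points of the other 8 members are open in all 6.

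Over the 10 members the median log2 fold change was 0.02 in HFD Renin against chow novirus, where that of all tested genes was 0.01, and 0.16 in chow Renin against chow novirus, where that of all genes was -0.03. It was 0.07 in HFD novirus against chow novirus (all genes 0.01), -0.09 in HFD Renin against HFD novirus (-0.01), -0.11 in HFD Renin against chow Renin (0.02) and -0.17 for the interaction (0.01).

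Around these members, 78 further pathway genes in 8 lists were counted, of which 67 were tested. In HFD Renin against chow novirus 3 were called higher and 7 lower, which is 14.9% of those tested beside 8.29% of all genes (4.05% higher and 4.25% lower), with a median log2 fold change of 0.06. In chow Renin against chow novirus 12 were higher and 3 lower (22.4% beside 13.5%, of which 10.1% higher and 3.36% lower). In HFD novirus against chow novirus edgeR called 0 of 67, beside 0.0657% of all genes, with 14 at an unadjusted p under 0.05, as were 1668 of all 15216 genes. In HFD Renin against HFD novirus 5 were higher and 6 lower (16.4% beside 11.1%, of which 6.07% higher and 5.08% lower), and against chow Renin 10 were higher and 15 lower (37.3% beside 22.6%, of which 9.8% higher and 12.8% lower). The interaction was called positive for 1 and negative for 9 (14.9% beside 10.4%, of which 3.14% positive and 7.3% negative).

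Of 12 tested genes of arginine and cofactor supply, 3 were called lower and 0 higher in HFD Renin against chow novirus, where 4.25% of all tested genes were called lower; 5 of the 12 had a positive log2 fold change, and the median was -0.08. Slc7a1, the cationic amino acid transporter that carries arginine into cells, was at 49.7 to 90.8 CPM in chow novirus and 32.4 to 41.0 CPM in HFD Renin, a log2 fold change of -0.997 (SE 0.16, adjusted p = 0.000944, edgeR). Spr and Qdpr, enzymes that make and recycle the synthase cofactor tetrahydrobiopterin, were lower by smaller amounts (-0.27 and -0.22). Spr was also called lower in chow Renin than in chow novirus (-0.24, SE 0.07, adjusted p = 0.0156). In chow Renin Ass1, which rebuilds arginine from citrulline, was higher by 0.70 (SE 0.12, adjusted p = 0.000194), at 9.88 to 12.9 CPM against 6.11 to 7.79 CPM. In that comparison 10 of 10 stimulated-cell and 8 of 8 central neuron markers were called higher, and in HFD Renin against chow novirus 4 of 9 cardiomyocyte and 4 of 9 night clock markers were called lower; their part in these values was not tested.

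Of 12 synthase partners, Hsp90aa1, a chaperone that binds the endothelial synthase, was the single gene called in HFD Renin against chow novirus (0.65, SE 0.16, adjusted p = 0.0162, edgeR), a share close to the 8.29% of all tested genes. Nos1ap, an adaptor of the neuronal synthase, was higher in chow Renin than in chow novirus by 0.63. There 2 of the 12 partners were called higher, beside 10.1% of all tested genes. Against chow Renin, HFD Renin had more Nostrin (0.62), a trafficking partner of the endothelial synthase, and less Nos1ap (-0.63). Of the 12 partners, 4 were called higher and 2 lower there, where 9.8% and 12.8% of all tested genes were. In that comparison 3 of 8 endothelial markers were called higher (819.8 to 978 CPM summed in HFD Renin, 694 to 849 CPM in chow Renin) and 8 of 8 central neuron markers lower, and their part was not tested. Of 7 genes that remove nitric oxide or nitrosothiols, 2 were called higher and 0 lower in HFD Renin against chow Renin, where 9.8% of all genes were called higher, with Cygb, encoding cytoglobin, at 0.38. Among 6 tested genes for other guanylyl cyclases and natriuretic receptors, the single call over the comparisons was the clearance receptor Npr3 in HFD Renin against chow Renin (0.77, SE 0.21, adjusted p = 0.00996), where 22.6% of all genes were called.

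Of 12 tested kinase partners and substrates, 6 had a positive log2 fold change in HFD Renin against chow novirus, with a median of -0.01, and 3 were called lower, beside 4.25% of all genes: Rgs2, a regulator of G protein signals that the kinase activates (-1.21, SE 0.24, adjusted p = 0.00537, edgeR), Tnni3, cardiac troponin I (-0.48), and Pln, phospholamban (-0.32). Rgs2 stood at 61.1 to 75.9 CPM in chow novirus and 15.8 to 43.5 CPM in HFD Renin, so these ranges did not overlap. Tnni3 and Pln are also on the cardiomyocyte list, of which 4 of 9 were called lower in that comparison, themselves and Myh6 and Tnnt2. Between chow Renin and chow novirus the called genes of largest change were Kcnma1, the large-conductance potassium channel (2.23, SE 0.25), Prkg2, the second cyclic GMP-dependent kinase (1.82, SE 0.23), and Itpr1 (0.64, SE 0.10), with adjusted p of 4.13e-07, 1.73e-06 and 2.51e-05 (edgeR). Of the 12 genes, 3 were called higher and 1 lower there, where 10.1% and 3.36% of all tested genes were. Prkg2 ran from 2.88 to 4.18 CPM in chow Renin and from 0.623 to 1.82 CPM in the other 3 groups. In the same comparison 8 of 8 central neuron, 6 of 6 oligodendrocyte and 10 of 10 stimulated-cell markers were called higher, with median log2 fold changes of 2.37, 2.11 and 2.07, and their part in these rises was not tested.

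A further list holds phosphodiesterases that split cyclic GMP, with Pde6d and Pde6g, which are not catalytic subunits. Of its 8 tested genes, 3 were called higher and 0 lower in chow Renin against chow novirus, where 10.1% of all tested genes were called higher: Pde10a by 1.35 (SE 0.27), Pde1b by 1.28 (SE 0.26) and Pde1a by 0.88 (SE 0.14), with adjusted p of 0.000857, 0.00134 and 3.32e-05 (edgeR). The same 3 genes were lower in HFD Renin than in chow Renin, with log2 fold changes of -0.92, -0.82 and -0.76. These rises in chow Renin came in the libraries with 288 to 439 CPM of central neuron markers, and the part of those cells in them was not tested. Among 8 phosphodiesterases specific for cyclic AMP, Pde8a was higher (0.44, SE 0.10, adjusted p = 0.00851) and Pde4d lower (-0.43, SE 0.12, adjusted p = 0.0250) in HFD Renin against chow novirus. They were the only 2 of the 8 called there, where 4.05% of all tested genes were called higher and 4.25% lower. In that comparison 4 of 9 cardiomyocyte and 4 of 9 night clock markers were called lower, and their part was not tested. Of the 2 nucleotide exporters, Abcc4 was called higher in HFD Renin and in chow Renin against chow novirus, with 14.5 to 20.7 and 15.98 to 19.9 CPM against 12.7 to 14.3 CPM. Of all tested genes, 4.05% and 10.1% were called higher in these comparisons. In HFD Renin its log2 fold change was 0.37 (SE 0.10, adjusted p = 0.0214, edgeR). The part of the marker sets that moved in both comparisons was not tested.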

How the data were processed

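Heart RNA of 21 mice was sequenced, 1 library a heart, with groups and replicate numbers taken from the sample titles. Per the file headers, the deposited transcript tables give expected counts (estimated reads per transcript, not normalized) and TPM (expression per length and depth), in the layout of Salmon. Salmon 1.10.2, DESeq2 1.40.2 and the build GRCm38 (mm10) are named in the submitters' processing notes. The authors also deposited a gene matrix of signal per library, with, from their own comparison, a column of log2 fold changes and one of adjusted p-values, per the file headers; how that signal was scaled is not given in the sources used here.

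Expected counts were summed to genes by GENCODE M21 (GRCm38; 97.95% of 119215 transcripts matched, and unmatched reads were 0.854 to 0.925% of a library) and rounded. The fit used edgeR 4.0.16: TMM factors (0.886 to 1.09), filterByExpr, 1 quasi-likelihood fit over the 21 libraries with a term per group, two-sided tests, and Benjamini-Hochberg adjustment over 15216 genes. The biological coefficient of variation was 0.154, and the fit was tested on simulated data. SE was derived as |log2 fold change| over the square root of F. CPM are TMM-scaled, and correlations use log2 CPM with a prior count of 2. Transcript shares were compared by exact permutation tests in members with at least 20 reads in every library.

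The members, the pathway and marker lists and the rules were chosen with earlier results of these data known. All 10 members are named in every comparison, at most the 3 called genes of largest change per pathway list and comparison, and the 3 genes of highest correlation with a member. A few genes that these rules pick are not reported here. Alternatives were other scalings, filters, DESeq2 1.42.0, limma 3.58.1 on the gene matrix with pseudocounts 1 and 0.1, marker scores as covariates and left-out libraries; leaving out the 5 libraries high in atrial markers, the atrial covariate and the limit on transcript length were chosen after seeing the data. Libraries of the same group differed by more than sampling noise (chi-square per degree of freedom 3.51 to 55.6 over 46 pairs).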

Additional observations from a re-analysis of the deposited data

Results flagged for a closer look

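In the 44 sets of values looked at (10 members and the subunit ratio in 4 groups), 4 held a library far from the rest of its group; chance flags about 1 in 20. Chow novirus replicate 3, which is high in atrial markers, held 1.04 CPM of Nos1 against 0.333 to 0.436 in its group, and 3.79 CPM of Pde9a against 2.28 to 2.34. Chow Renin replicate 2 held 21.6 CPM of Gucy1b1 against 19.8 to 20.2, and HFD novirus replicate 1 held 93.6 CPM of Pde3a against 58.4 to 71.2.

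Of the 67 tested pathway genes outside the members, 14.9% had a called interaction, beside 10.4% of all tested genes (3.14% positive and 7.3% negative). For these 10 genes the Renin effect differed between the diets by the interaction term in edgeR. Its log2 fold change under HFD less that under chow was -2.73 for Kcnma1 (adjusted p = 4.36e-06), -2.24 for Prkg2 (1.58e-05), -1.19 for Pde1b (0.0318), -0.85 for Pde1a (0.00264), -0.68 for Pde8b (0.0170), -0.63 for Ass1 (0.0156), -0.58 for Itpr1 (0.00395), -0.34 for Calm2 (0.0220), -0.28 for Calm3 (0.0223) and 0.43 for Pde8a (0.0338). The interaction was also called for 8 of 8 central neuron markers and 10 of 10 stimulated-cell genes. All of these were negative, as were 9 of the 10 pathway genes, while Pde8a was positive. Both marker lists were chosen with earlier results of these data known, and the part of these cells in the values was not tested.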

How the results depend on the processing

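Over all single-member fits, 1444 alternatives kept the call or its absence, 29 added a call, 17 lost one and none reversed a called direction. The 1444 include fits whose sign changed while neither fit was called. For Gucy1a1 in chow Renin against chow novirus, the log2 fold change ran from -0.54 to 0.48 over the alternatives. The count of called members was 1 in HFD Renin against chow novirus and 0 with the clock covariate. In chow Renin against chow novirus it was 2, and 1 with no filter, with limma at either pseudocount or without the 5 libraries high in atrial markers, 0 with the clock or the central nervous covariate, and 3 with DESeq2, only the groups compared or the atrial covariate (Nos3 added, adjusted p 0.0461, 0.0360 and 0.0499). In HFD Renin against HFD novirus it was 1, then 0 with the clock and 2 with the central nervous covariate (Pde3a added, -0.40, adjusted p = 0.0489, edgeR). In HFD Renin against chow Renin it was 1, then 2 with DESeq2, its size factors, a mean of at least 1 CPM or the atrial covariate, 3 with upper-quartile factors or with only the groups compared, and 0 with the central nervous covariate; the added genes were Gucy1b1 and Nos2. The interaction count was 0, and 1 (Gucy1b1) with DESeq2, its size factors, upper-quartile factors or a mean of at least 1 CPM. Leaving out each library gave 1 to 2, 1 to 3, 0, 1 to 2, 1 to 2 and 0 to 1 members in the 6 comparisons.

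Among single libraries, HFD Renin replicate 4 left out added Nos1 against HFD novirus (1.09, adjusted p = 0.0439, edgeR), and HFD Renin replicate 5 left out added it against chow Renin (-1.06, adjusted p = 0.0317). Chow novirus replicate 1 left out added Nos3 in chow Renin against chow novirus (-0.34, adjusted p = 0.0247). Gucy1b1 was added in HFD Renin against chow Renin without chow Renin replicate 1, 3 or 5 or HFD Renin replicate 1 (adjusted p 0.0404 to 0.0496), and for the interaction without chow novirus replicate 3 or 4 or HFD novirus replicate 1 or 5 (0.0263 to 0.0421). In CPM the log2 subunit ratio was -0.086, -0.071, 0.11 and -0.035 in chow novirus, chow Renin, HFD novirus and HFD Renin, since CPM does not divide by length. With transcripts of at least 1000 bases, Pde2a, Pde3a, Pde9a and Pde5a made up 60.0, 27.6, 9.74 and 2.64% of their summed TPM. The main fit did not pair libraries by replicate number, and whether the numbers mark pairs is not settled by these values. Same-numbered pairs from different groups had a mean r of 0.09, and other pairs -0.02. Of the same-numbered pairs, 11 of 28 had r over 0.1 (range -0.23 to 0.42). Of the libraries, 7 of 21 correlated best with their own number. Replicate 3 was high in atrial markers in every group. With a replicate block the counts of called members were 1, 3, 0, 1, 1 and 0, with Nos3 (-0.33, adjusted p = 0.00884) added in chow Renin against chow novirus.

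Nos1 rests on 6 to 84 reads a library, and counting error limits it most among the members.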
